A study of Mus musculus with 24 samples.

Results

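The genes examined here were the SR proteins and the heterogeneous nuclear ribonucleoproteins (hnRNPs), chosen by name as all rows of the gene tables called Srsf plus a number or Hnrnp plus letters and digits without a hyphen. The rule found 31 genes of 56941 in the tables, of which 11 were SR genes and 20 were hnRNP genes, and it used no measured value. The members were, however, chosen with earlier results of these data known. The tissues were made from C2C12 mouse myoblasts of the genotype ChR2::tdTomato, which carry a light-gated cation channel fused to a red fluorescent protein. The cells were differentiated for roughly 2 weeks on a fibrin gel, and the RNA of the whole tissue was sequenced. All 4 conditions shared this genotype and culture, and they differed in the blue light given each day. Control tissues received no stimulation, and the others were stimulated for 60 min per day at 1, 4, or 10 Hz, with 6 libraries per condition. The comparison asks how the messages of splicing regulators differed between unstimulated muscle and muscle stimulated at each frequency.

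SR proteins carry arginine and serine repeats and bind short enhancer sequences in exons, where they help the spliceosome to choose splice sites. Kinases of the SRPK and CLK families phosphorylate these repeats and so set where the SR proteins are in the cell and how active they are. The hnRNPs coat newly made RNA, and many of them mask splice sites or exons. Members of both families can limit their own amount by splicing their messages into forms that are degraded by nonsense-mediated decay. Skeletal muscle uses alternative splicing widely, for example in troponin T and titin, so the balance of these regulators is of interest there.

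Of the 31 genes, 30 had enough counts to be tested, among 13315 genes tested in all. Srsf12, an SR protein of restricted expression, had 0 estimated counts in all 24 libraries, and 3 counts in a library would be a level of 0.165 to 0.373 CPM. Levels are given as CPM (counts relative to the library total, scaled by edgeR's TMM factors) for comparisons between conditions and as TPM, which also corrects for transcript length, for comparisons between genes. Library depth ran from 8052369 to 18159144 estimated counts. For the muscle label, 24 myotube markers were looked at, which all passed the filter on low counts and summed to 15550 to 29090 CPM over the libraries. The mitochondrial share of counts was 0.545 to 8.9%, the highest being replicate 3 of 4 Hz. Bulk RNA cannot tell apart fewer cells of a type and less RNA per cell. Nothing in the sample labels says that the 6 libraries of a condition came from separate cultures, and the study's methods call them biological replicates.

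Start regions of 4 of these genes are shown first, 3 of which fell with stimulation and 1 of which rose on the count scale, as examples of what such promoters hold. Each line gives the 100 bases before the start of the gene, 5′ to 3′ on the strand of the gene, in the GRCm39 build with the GENCODE annotation. The stretches are chr11:87938029-87938128 on the plus strand for Srsf1, chr1:178165363-178165462 on the minus strand for Hnrnpu, chr13:58276371-58276470 on the minus strand for Hnrnpa0, and chr17:80370015-80370114 on the minus strand for Hnrnpll. None of them holds an annotated UTR base, and those of Srsf1 and Hnrnpll overlap an exon of the noncoding genes Gm11508 and 4933407O12Rik. Capitals mark the letters GGGCGG (a GC box) and CCAAT, read on both strands.
Srsf1: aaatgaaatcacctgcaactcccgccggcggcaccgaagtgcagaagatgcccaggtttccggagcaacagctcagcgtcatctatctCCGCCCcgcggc
Hnrnpu: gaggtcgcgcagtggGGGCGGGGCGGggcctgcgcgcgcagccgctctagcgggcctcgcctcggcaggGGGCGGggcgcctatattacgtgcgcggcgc
Hnrnpa0: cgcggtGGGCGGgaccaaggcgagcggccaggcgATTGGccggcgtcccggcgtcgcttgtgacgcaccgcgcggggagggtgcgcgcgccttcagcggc
Hnrnpll: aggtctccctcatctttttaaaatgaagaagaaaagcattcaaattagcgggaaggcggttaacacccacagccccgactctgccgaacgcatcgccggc

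For all 30 tested members, the 250 bases before the start of the canonical transcript were read, and many of these stretches are not free of other annotation. In the last 100 bases before the start, 20 members have an annotated UTR base (10 throughout), 20 an exon of another gene, 13 an exon of their own gene, and 3 no exon. The number of CpG pairs ran from 1 in Hnrnpm, whose last 100 bases are UTR throughout and overlap an exon of Marchf2, to 46 in Hnrnpa0, which overlaps none. In these 250 bases, the tested members held a median of 21 CpG pairs against 13 over 12102 protein-coding genes tested, with 13 in Srsf1, 35 in Hnrnpu, and 16 in Hnrnpll, and with 9 in Srsf10 and Hnrnpa1 and 11 in Hnrnph2. These numbers are a description without a test. The letters GGGCGG were found in 19 of 30 members (63.3%) against 49.8% of all. The letters CCAAT were found in 11 members (36.7%), all of them hnRNP genes, against 36.7% of all. The letters CCGGAAG, which ETS factors bind, were found in 5 members (16.7%) against 10.2%, namely Srsf4, Srsf5, Srsf7, Srsf11, and Hnrnpf. The letters CACGTG (an E-box) were found in Hnrnpa3, Hnrnpdl, and Hnrnph3 (10.0%) against 7.96%. No member held TATAAA, the NRF1 core, or TGACGTCA, which 7.3%, 1.07%, and 2.11% of all genes held. These matches are letters on either strand and not measured binding sites.

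In unstimulated tissue, the hnRNP genes spanned a wider range of levels than the SR genes. The most abundant hnRNP messages were Hnrnpc, which binds uridine tracts, with a control median of 569.7 TPM, Hnrnpk, which binds cytosine-rich RNA, with 567 TPM, and Hnrnpa1, a well-studied silencer of exons, with 539 TPM. The lowest tested hnRNP gene by control median, Hnrnpul2, had 25.0 TPM, so that the medians of the family spanned 22.8-fold. Hnrnpll was close to it at 25.1 TPM, and was lower by control mean (24.96 against 25.66 TPM). Among SR genes, Srsf5 had a control median of 221 TPM, Srsf3, which also takes part in mRNA export, had 171 TPM, and Srsf2, a component of nuclear speckles, had 123 TPM. These 3 genes made up 57% of the summed SR level, whereas the top 3 hnRNP genes made up 38.9% of theirs. Srsf1, the founding member of the SR family, had 46.0 TPM, and the lowest tested SR gene, Srsf9, had 40.1 TPM, 5.51-fold below Srsf5. Srsf9 ranked last by TPM, but its range between control libraries was not compared by a test with its neighbours Srsf1 and Srsf10 (47.8 TPM).

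**Figure D1:**
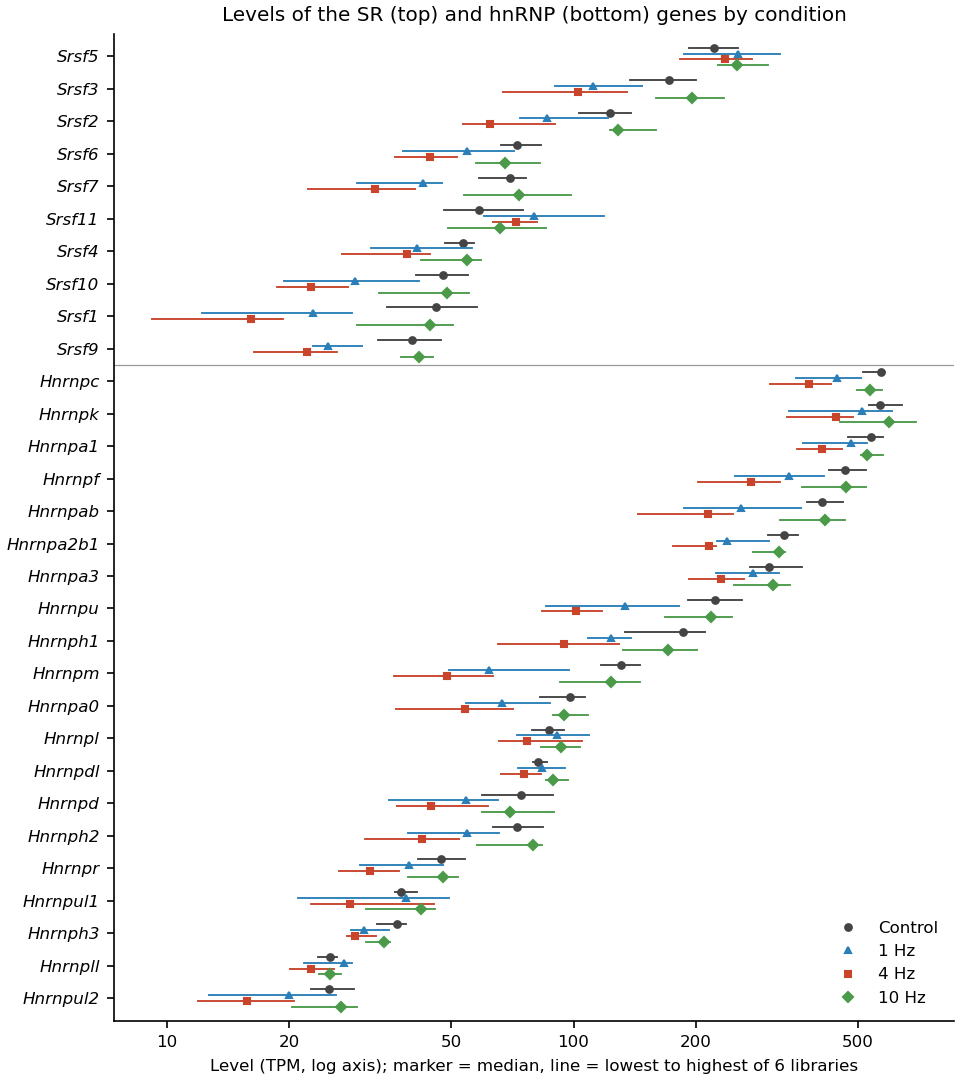
Levels of the 30 tested SR and hnRNP genes in TPM on a log axis, with the median (marker) and the lowest to highest of 6 libraries (line) for each condition. Markers for 4 Hz lie left of those for control in most genes, for example Srsf1 at 16.1 against 46.0 TPM, while those for 10 Hz lie close to control.

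At 1 and 4 Hz most of these messages were lower than in unstimulated tissue. At 1 Hz, 17 of the 30 members fell and 5 rose at an adjusted p under 0.05 (edgeR quasi-likelihood test, Benjamini-Hochberg over all genes), beside 18.1% of all genes tested that fell and 19.2% that rose. At 4 Hz, 21 members fell and 4 rose, beside 23.9% and 27.5% of all genes. A library measure moved with stimulation, the level of RNAs without a poly(A) tail (described further on). With this level as a covariate, 6 members fell and 1 rose at 1 Hz, beside 7.4% and 6.1% of all genes. Because the level moved with stimulation, the fit cannot fully separate the level from stimulation. The rises depended on the scale, and on log2(TPM + 1) 20 members fell and 1 rose at 1 Hz (21.9% and 3.64% of all genes, limma) and 24 fell and 0 rose at 4 Hz (35.9% and 5.92%). The median log2 fold change over the members was −0.23 at 1 Hz and −0.36 at 4 Hz, whereas the median over all genes tested was 0.04 and 0.06. Changes beyond 0.5 on the log2 scale were reached by 6 members at 1 Hz (5 lower, 1 higher; 14.9% of all genes in either direction) and by 11 at 4 Hz (10 lower, 1 higher; 25.1% of all genes).

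Separation of whole groups gave a similar picture. All 6 libraries at 1 Hz lay below every control library for 10 members (8.58% of all genes), and all lay above for 4 (5.55% of all genes), namely Srsf5, Srsf11, Hnrnpdl, and Hnrnpll. At 4 Hz the groups were separated downward for 16 members (14.7% of all genes) and upward for 4 (12.9% of all genes), namely Srsf5, Srsf11, Hnrnpl, and Hnrnpll. By family, 6 of 10 SR genes fell and 2 rose at 1 Hz (median −0.32), and 8 fell and 2 rose at 4 Hz (median −0.54). Of 20 hnRNP genes, 11 fell and 3 rose at 1 Hz (median −0.18), and 13 fell and 2 rose at 4 Hz (median −0.28). Over all genes, 18.1% fell and 19.2% rose at 1 Hz, and 23.9% fell and 27.5% rose at 4 Hz. With the covariate named above, the SR calls at 1 Hz were Srsf1 and Srsf9 (lower) and Srsf5 (higher). The hnRNP calls were then Hnrnph1, Hnrnpab, Hnrnpu, and Hnrnpm, all lower. Whether the families differed was not tested.

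**Figure D2:**
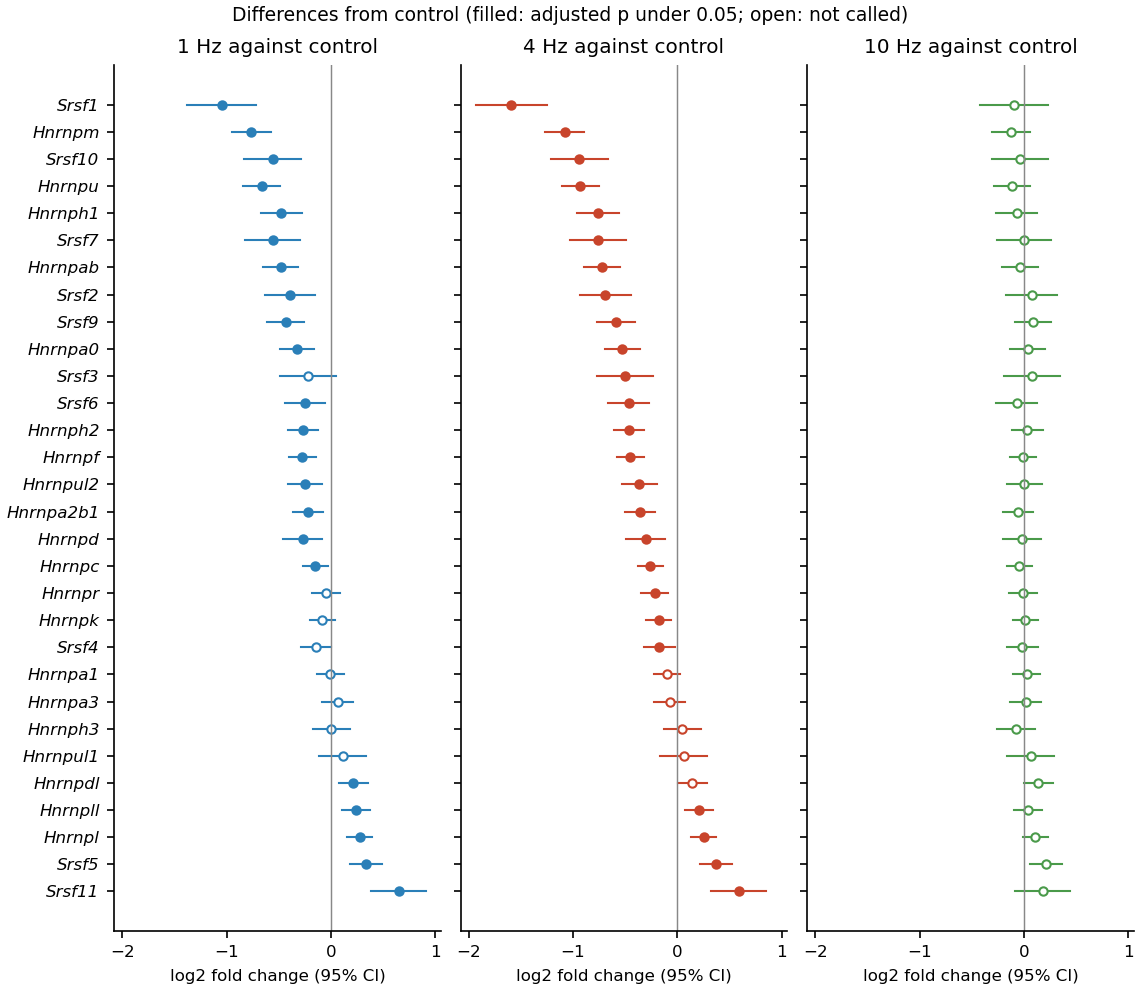
Difference of each tested gene from control as log2 fold change with its 95% confidence interval at 1, 4, and 10 Hz, filled where the adjusted p was under 0.05 and open otherwise. Most points lie left of 0 at 1 and 4 Hz, down to −1.59 for Srsf1, and all points at 10 Hz are open and lie between −0.12 and 0.22.

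Among the SR genes, Srsf1 fell furthest. This protein promotes the use of nearby splice sites in many exons, and its gene lies on the plus strand at chr11:87938129-87944581 (GRCm39). Its level was 53.5 to 79.2 CPM in control (median 71.7), 26.5 to 43.6 CPM at 1 Hz (median 32.9), 11.2 to 30.9 CPM at 4 Hz (median 22.6), and 55.2 to 77.7 CPM at 10 Hz (median 63.7). Every library at 1 and 4 Hz was below every control library, and those at 10 Hz overlapped control. The log2 fold change was −1.05 (SE 0.161, adjusted p = 2.34e-05, edgeR) at 1 Hz and −1.59 (SE 0.166, adjusted p = 6.81e-08) at 4 Hz, which is 0.484 and 0.332 of control.

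Srsf10 (chr4:135583043-135602548), an SR-like protein that represses splicing when it loses its phosphates, had 77.9 to 98.6 CPM in control (median 85.0), 47.3 to 71.5 CPM at 1 Hz (median 57.3), and 31.2 to 60.4 CPM at 4 Hz (median 42.6). Both stimulated groups lay wholly below control. It fell by 0.56 on the log2 scale at 1 Hz (SE 0.131, adjusted p = 0.00177) and by 0.94 at 4 Hz (SE 0.133, adjusted p = 3.49e-06). Srsf7 (chr17:80507501-80514879), an adaptor for mRNA export, had 52.2 to 67.1 CPM in control (median 60.9), 34.2 to 51.0 CPM at 1 Hz (median 39.6), and 23.7 to 49.3 CPM at 4 Hz (median 33.6), again without overlap. It fell by 0.56 at 1 Hz (SE 0.128, adjusted p = 0.0014) and by 0.76 at 4 Hz (SE 0.129, adjusted p = 3.45e-05). With the level of RNAs without a poly(A) tail as a covariate (described further on), the differences at 1 Hz were −0.36 (adjusted p = 0.165) for Srsf10 and −0.38 (adjusted p = 0.135) for Srsf7, neither called.

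Srsf2 (chr11:116740723-116744518), which marks nuclear speckles, had 102 to 133 CPM in control (median 121.5), 74.6 to 107 CPM at 1 Hz (median 90.9), and 57.7 to 97.5 CPM at 4 Hz (median 75.1). Its groups overlapped at 1 Hz and were separate at 4 Hz, where it fell by 0.69 on the log2 scale (SE 0.119, adjusted p = 4.14e-05) after a difference of −0.39 (SE 0.118, adjusted p = 0.0115) at 1 Hz. With an offset for transcript length this smaller difference was not called (−0.26, adjusted p = 0.0649), nor was it with the covariate (−0.31, adjusted p = 0.206). Srsf9 (chr5:115465189-115476335) had 21.0 to 28.7 CPM in control (median 25.7), 16.3 to 20.4 CPM at 1 Hz (median 19.1), and 13.9 to 18.6 CPM at 4 Hz (median 17.3). Its stimulated libraries were all below control, with falls of 0.44 (SE 0.0862, adjusted p = 0.000342) and 0.59 (SE 0.0876, adjusted p = 6.15e-06). Srsf3 (chr17:29251321-29262347) overlapped control at both frequencies, with 151 to 202 CPM in control (median 179.9), 121 to 208 CPM at 1 Hz (median 144), and 91.3 to 162.5 CPM at 4 Hz (median 119). Its difference at 1 Hz, −0.22 (adjusted p = 0.196), was not called, but it was on the log2(TPM + 1) scale (−0.56, adjusted p = 0.00704, limma), with the length offset (−0.35, adjusted p = 0.0374), and without replicate 6 of 1 Hz (−0.36). At 4 Hz it fell by 0.50 (SE 0.131, adjusted p = 0.00285).

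Both remaining SR genes of the falling group had smaller differences. Srsf6 had a log2 fold change of −0.25 (adjusted p = 0.0416) at 1 Hz and −0.47 (adjusted p = 0.000274) at 4 Hz. Its call at 1 Hz was lost without the libraries highest in RNAs without a poly(A) tail (−0.33, adjusted p = 0.0701, edgeR). It was also lost with the covariate for these RNAs (−0.17, adjusted p = 0.403). Srsf4 had −0.14 (adjusted p = 0.113) at 1 Hz, which was not called, and −0.17 (adjusted p = 0.0435) at 4 Hz. The Srsf4 call at 4 Hz was lost in both settings as well, where its difference was still −0.17 (adjusted p = 0.0673 and 0.124).

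Srsf5 and Srsf11 were higher. Srsf11 (chr3:157716110-157742310), an SR-like protein also known as p54, had 60.0 to 79.7 CPM in control (median 70.2), 92.7 to 139 CPM at 1 Hz (median 103), 91.3 to 129 CPM at 4 Hz (median 103), and 60.9 to 108 CPM at 10 Hz (median 78.1). All libraries at 1 and 4 Hz exceeded every control library. It rose by 0.65 on the log2 scale at 1 Hz (SE 0.128, adjusted p = 0.000338) and by 0.59 at 4 Hz (SE 0.128, adjusted p = 0.000553). Its differences were 0.47 and 0.32 on the log2(TPM + 1) scale, of which the second was not called (adjusted p = 0.074, limma). With the covariate for RNAs without a poly(A) tail, its rise at 1 Hz was 0.46 and not called (adjusted p = 0.0658, edgeR).

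Srsf5 (chr12:80986436-80997630), an SR protein for which 55 of 97 annotated transcripts are of the nonsense-mediated decay type, had 153 to 199 CPM in control (median 182.9), 211 to 254 CPM at 1 Hz (median 222), 207 to 262 CPM at 4 Hz (median 226), and 188 to 239 CPM at 10 Hz (median 206). It was above every control library in both groups and rose by 0.33 (SE 0.0744, adjusted p = 0.00115) and 0.37 (SE 0.0745, adjusted p = 0.000252). On the log2(TPM + 1) scale its differences were 0.14 and 0.08, neither called (adjusted p = 0.423 and 0.623, limma). Without the 4 libraries at 1 Hz that were highest in RNAs without a poly(A) tail (described further on), its rise at 1 Hz was 0.25 (adjusted p = 0.0904).

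**Figure D3:**
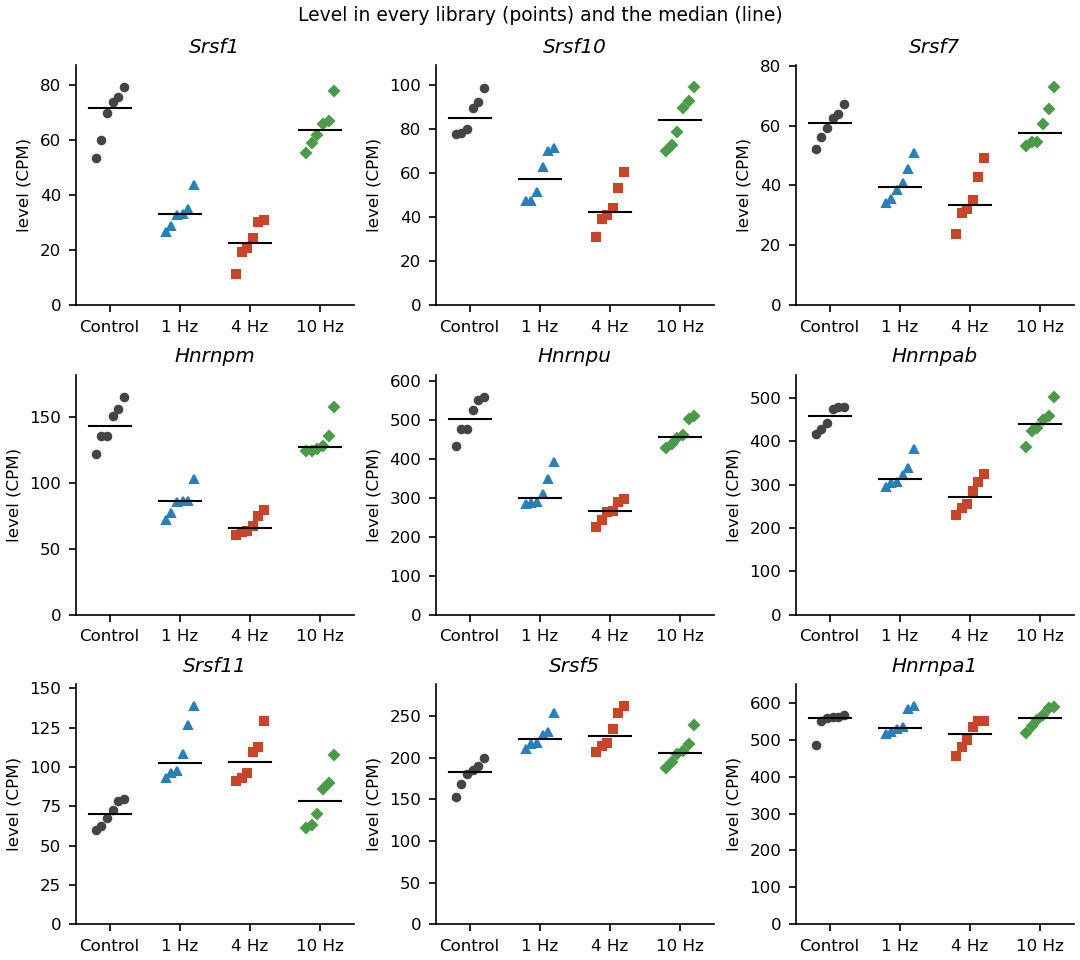
Level of 9 named genes in CPM in every library (points) by condition, with the median as a line and the vertical axis starting at 0. Srsf1, Srsf10, Srsf7, Hnrnpm, Hnrnpu, and Hnrnpab at 1 and 4 Hz lie below every control library, Srsf11 and Srsf5 lie above, and Hnrnpa1 overlaps in all conditions.

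Among the hnRNP genes, Hnrnpm and Hnrnpu had the smallest p-values of all members. Hnrnpm (chr17:33865207-33905834), which binds guanine- and uridine-rich RNA, had 122 to 166 CPM in control (median 143), 71.9 to 103 CPM at 1 Hz (median 86.1), 60.5 to 79.5 CPM at 4 Hz (median 65.6), and 125 to 158 CPM at 10 Hz (median 127). It fell by 0.76 on the log2 scale at 1 Hz (SE 0.0898, adjusted p = 6e-07, edgeR) and by 1.08 at 4 Hz (SE 0.0908, adjusted p = 1.57e-09), to 0.473 of control. One of its exons shares bases with the same-strand gene Marchf2, so some reads of the pair may not be told apart.

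Hnrnpu (chr1:178148673-178165362), also called scaffold attachment factor A because it binds chromatin as well as RNA, had 432 to 559 CPM in control (median 501), 284 to 392 CPM at 1 Hz (median 299), and 224 to 296 CPM at 4 Hz (median 265). It fell by 0.66 at 1 Hz (SE 0.0862, adjusted p = 2.37e-06) and by 0.93 at 4 Hz (SE 0.0867, adjusted p = 8.29e-09). Its levels and those of Hnrnpm at 1 and 4 Hz did not overlap control.

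Hnrnph1 (chr11:50267127-50277364), which binds runs of guanine, had 152 to 182 CPM in control (median 164), 100.4 to 132 CPM at 1 Hz (median 123), and 78.3 to 123 CPM at 4 Hz (median 93.0). It fell by 0.48 (SE 0.097, adjusted p = 0.000468) and 0.76 (SE 0.0978, adjusted p = 8.16e-07), and with the length offset its difference at 1 Hz was −0.35 and not called (adjusted p = 0.0504). Its relatives were lower too, Hnrnpf by 0.27 and 0.45 and Hnrnph2 by 0.27 and 0.46, all called and all without overlap with control, while Hnrnph3 had 0.01 and 0.05, neither called. With the covariate for RNAs without a poly(A) tail, the 1 Hz calls of Hnrnpf and Hnrnph2 were lost. Hnrnpf then had −0.19 (adjusted p = 0.0988, edgeR) and Hnrnph2 had −0.15 (adjusted p = 0.281). On the log2(TPM + 1) scale, Hnrnph3 had −0.22 (adjusted p = 0.0265, limma) and −0.28 (adjusted p = 0.0035), both called and of the opposite direction.

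Hnrnpab (chr11:51487363-51510327), a relative of Hnrnpd, had 416 to 479.5 CPM in control (median 458), 295 to 383 CPM at 1 Hz (median 314), and 229 to 324 CPM at 4 Hz (median 271). No stimulated library of these reached control, and it fell by 0.48 (SE 0.0828, adjusted p = 7.33e-05) and 0.72 (SE 0.0832, adjusted p = 1.95e-07). Hnrnpd, known for binding AU-rich elements that shorten the life of mRNA, had smaller called differences of −0.27 and −0.30. Hnrnpdl, its close relative, rose by 0.21 at 1 Hz (adjusted p = 0.0161). At 4 Hz it had 0.14 (not called, but 0.18 and adjusted p = 0.0488 with the length offset). On the log2(TPM + 1) scale, Hnrnpdl had 0.01 and −0.13, and Hnrnpd had −0.53 and −0.66, the latter 2 called (limma). With the covariate, Hnrnpd had −0.21 (adjusted p = 0.28, edgeR) and −0.26 (adjusted p = 0.0597), neither called. The rise of Hnrnpdl at 1 Hz was then 0.19 and not called (adjusted p = 0.177).

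Within the A group of hnRNPs the differences were of unequal size. Hnrnpa0 (chr13:58273693-58276370), a gene with a single annotated transcript, had 140 to 176 CPM in control (median 162.5), 113 to 141 CPM at 1 Hz (median 128), and 95.5 to 135 CPM at 4 Hz (median 107). Its groups overlapped at 1 Hz and were separate at 4 Hz, with falls of 0.33 (SE 0.0812, adjusted p = 0.00293) and 0.53 (SE 0.0816, adjusted p = 1e-05). Hnrnpa2b1, which sorts RNA for transport, fell by 0.22 and 0.36.

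Hnrnpa1 had 485.5 to 566 CPM in control (median 560.3), 515 to 591 CPM at 1 Hz (median 531), and 456 to 550.3 CPM at 4 Hz (median 516), all overlapping. Its log2 fold changes of −0.01 (adjusted p = 0.947) and −0.10 (95% confidence interval −0.23 to 0.03, adjusted p = 0.18) were not called. At 4 Hz, Hnrnpa1 passed the test in 6 of 24 alternatives, with −0.40 on the log2(TPM + 1) scale (adjusted p = 0.000381, limma), with −0.17 without the libraries highest in RNAs without a poly(A) tail (adjusted p = 0.0357), with DESeq2, and with up to −0.15 without replicate 3 or 4 of 4 Hz. Hnrnpa3 had 0.06 and −0.07, neither called, but −0.18 (not called) and −0.42 (adjusted p = 0.00141, limma) on the log2(TPM + 1) scale. Several processed copies of Hnrnpa1 exist in the genome, and the 2 such rows left out by the rule reached at most 8.70 and 4.38 estimated counts in a library.

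The remaining hnRNP genes had small differences. Hnrnpc, at 512.5 to 557 CPM in control (median 534), had 431 to 554 CPM at 1 Hz (median 479.9) and 415 to 469.6 CPM at 4 Hz (median 450.2), and only the 4 Hz libraries were all below control. Its log2 fold changes were −0.15 (adjusted p = 0.0472) and −0.26 (adjusted p = 0.000789), and the call at 1 Hz was lost in 13 of 24 alternatives, in 8 of them by leaving out 1 library (replicate 1, 3, 4, 5, or 6 of control or replicate 1, 2, or 5 of 1 Hz, with differences from −0.16 to −0.12). Hnrnpk had 435 to 495 CPM in control (median 470.0), 416 to 465 CPM at 1 Hz (median 447.5), and 372 to 451 CPM at 4 Hz (median 419.5), with overlap in both cases. Its log2 fold changes were −0.08 (adjusted p = 0.27, not called) and −0.18 (adjusted p = 0.013). The call at 4 Hz was lost in 3 of 24 alternatives, with the length offset (−0.11, adjusted p = 0.211), without the libraries highest in RNAs without a poly(A) tail (−0.15, adjusted p = 0.065), and with the covariate (−0.13, adjusted p = 0.14). Hnrnpul2 fell by 0.25 and 0.36. Its call at 1 Hz was lost without those libraries (−0.27, adjusted p = 0.0817, edgeR) and with the covariate (−0.15, adjusted p = 0.356). Hnrnpr had −0.05 (not called) and −0.22, the second lost with the covariate (−0.16, adjusted p = 0.0881). Hnrnpul1 had 0.11 and 0.06, neither called (−0.15 and −0.28 on the log2(TPM + 1) scale, neither called).

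Hnrnpl and its paralog Hnrnpll, which bind CA repeats, were higher on the count scale. Hnrnpl (chr7:28507966-28521693) had 95.01 to 107 CPM in control (median 97.1), 106 to 131 CPM at 1 Hz (median 119.6), and 109 to 124.5 CPM at 4 Hz (median 118). It rose by 0.28 (SE 0.0582, adjusted p = 0.000619) and 0.25 (adjusted p = 0.000908), but on the log2(TPM + 1) scale it had 0.05 and −0.10, so that its direction at 4 Hz was the opposite. Hnrnpll (chr17:80335472-80370014), known for its part in the splicing of Ptprc in lymphocytes, had 43.3 to 49.0 CPM in control (median 46.0), 50.3 to 57.6 CPM at 1 Hz (median 56.9), and 51.1 to 57.6 CPM at 4 Hz (median 53.0). Both its stimulated groups were above control, with rises of 0.24 (adjusted p = 0.00573) and 0.21 (adjusted p = 0.0117), but it had 0.04 and −0.11 on the log2(TPM + 1) scale, also opposite at 4 Hz. Its calls at both frequencies were lost without the libraries highest in RNAs without a poly(A) tail, which leaves 2 libraries at 1 Hz and 4 at 4 Hz, although the differences stayed at 0.22 and 0.17 (adjusted p = 0.0982 and 0.0665). They were also lost with the covariate for these RNAs (0.196 and 0.17, adjusted p = 0.141 and 0.0852) and with no filter (0.21 and 0.16, adjusted p = 0.0707 and 0.161), and without replicate 3 of 4 Hz its rise there was 0.15 (adjusted p = 0.0598). The call of Hnrnpl at 1 Hz was lost without those libraries and with the covariate too (0.18, adjusted p = 0.0899, and 0.20, adjusted p = 0.0757).

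At 10 Hz no member passed the test against control. The edgeR test called 0 of 30 members (0.0376% of all genes beyond 0.5 on the log2 scale, 0.015% higher, 0.0225% lower), and DESeq2 called 0 too. A single member of the 30 had an unadjusted p under 0.05, beside 1074 of the 13315 genes tested. This was Srsf5, at 0.22 on the log2 scale (edgeR adjusted p = 0.4). The median log2 fold change over the members was 0.0009 at 10 Hz, and Hnrnpm had the lowest value, −0.12 (adjusted p = 0.821). By separation of whole groups, Hnrnpdl had 107.3 to 122.5 CPM at 10 Hz, above its 100.6 to 107.1 CPM in control (log2 fold change 0.14, adjusted p = 0.619, edgeR). No member was separated downward at 10 Hz, and over all genes 0.774% were separated upward and 0.864% downward.

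The frequencies were also compared directly in the same fit. Between 4 and 1 Hz, 0 members passed the test (0% of all genes), although 28 of 30 had a lower level at 4 Hz (48.5% of all genes) and 13 had an unadjusted p under 0.05 (11% of all genes in either direction), and DESeq2 called 0 members. The largest difference was that of Srsf1, −0.55 (95% confidence interval −0.89 to −0.20, adjusted p = 0.322). Between 10 and 1 Hz, 14 members were higher at 10 Hz and 3 were lower (27.9% of all genes differed in either direction). Between 10 and 4 Hz, 20 members were higher at 10 Hz and 3 were lower (46.3% of all genes).

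The genes higher at 10 Hz than at 4 Hz were led by Hnrnpm with a log2 difference of 0.96 (adjusted p = 2.15e-08), Hnrnpu with 0.82 (adjusted p = 1.13e-07), and Srsf1 with 1.498 (adjusted p = 2.74e-07). Against 1 Hz, Srsf1 was 0.95 higher at 10 Hz (adjusted p = 0.000136) and Hnrnpm 0.64 higher (adjusted p = 1.29e-05). The 3 genes lower at 10 Hz had smaller differences. Srsf11 was lower by 0.47 against 1 Hz (adjusted p = 0.00862) and by 0.41 against 4 Hz (adjusted p = 0.012), Hnrnpl was lower by 0.17 (adjusted p = 0.0354) and 0.14 (adjusted p = 0.0499), and Hnrnpll was lower by 0.20 (adjusted p = 0.0263) and 0.16 (adjusted p = 0.0446).

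The summed level of each family, given here without a test, fell by less than its most affected genes. The SR genes together had 785 to 1023 TPM in control (median 895), 595 to 947 TPM at 1 Hz (median 751), 546.5 to 769.8 TPM at 4 Hz (median 636), and 862 to 1139 TPM at 10 Hz (median 960.1). The hnRNP genes together had 3986 to 4641 TPM in control (median 4276), 2703 to 4026 TPM at 1 Hz (median 3416), 2263 to 3130 TPM at 4 Hz (median 2853), and 3654 to 4594 TPM at 10 Hz (median 4336). All 4 Hz libraries were below every control library in both TPM sums, and those at 10 Hz overlapped control. In CPM, the SR sum at 4 Hz (698 to 935 CPM) overlapped control (864 to 1050.0 CPM), and the hnRNP sum (3547 to 4011 CPM) lay below it (4531 to 5065 CPM). At 4 Hz the medians were 0.711 (SR) and 0.667 (hnRNP) of control in TPM and 0.806 and 0.784 in CPM.

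The median of all genes moved on the TPM scale as well. In log2(TPM + 1), the median over all genes was −0.14 at 1 Hz and −0.21 at 4 Hz, and over the members −0.45 and −0.67. Relative to the median over all genes, Srsf1 was at −0.88 and −1.33 and Hnrnpm at −0.84 and −1.21 on that scale, while Srsf11 was at 0.61 and 0.53, Hnrnpl at 0.19 and 0.10, and Hnrnpll at 0.18 and 0.10.

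**Figure D4:**
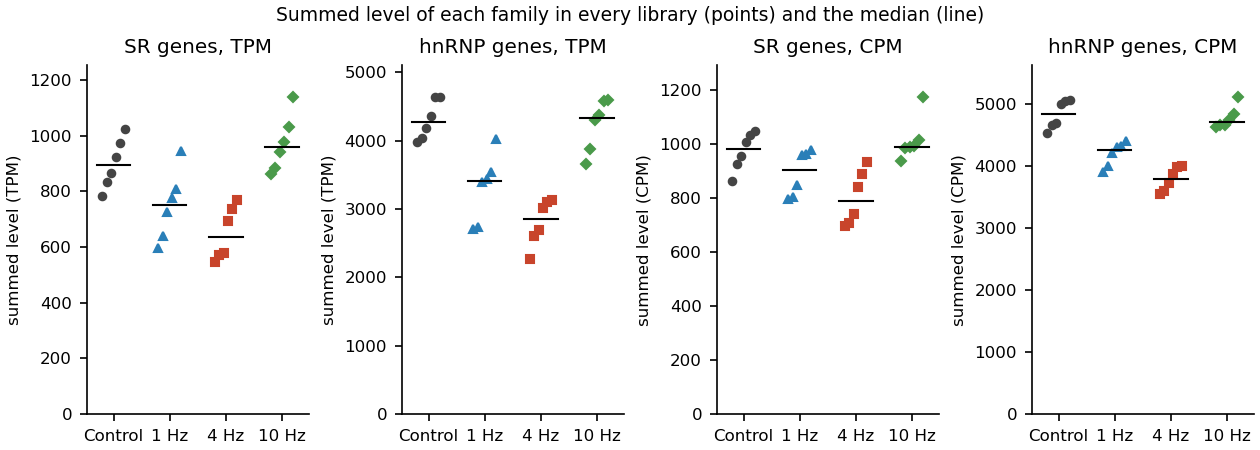
Summed level of the SR and of the hnRNP genes in every library (points) and its median (line) by condition, in TPM and in CPM, with axes from 0. The 4 Hz libraries lie below every control library in the TPM panels, at 2263 to 3130 TPM against 3986 to 4641 TPM for the hnRNP genes, and the 10 Hz libraries overlap control.

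A second readout bears on which transcripts of a gene were read. The count of a gene divided by its TPM is proportional to the mean effective transcript length that salmon assigned, so a change in it marks a shift in the mix of transcripts or in the length correction. None of the 30 members passed the limma test of this ratio at 1 Hz (0.0782% of all genes), 4 Hz (1.1%), or 10 Hz (0%). An unadjusted p under 0.05 was reached by 5, 8, and 0 members, beside 8.85%, 25.3%, and 3.13% of all genes. At 4 Hz, 1 member passed with at least 50 counts in every library, 4 when centred on the mean, and 2 without 4 Hz replicate 6. The share of all genes that passed was not counted in these alternatives, so these counts cannot be set against it.

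Srsf1 had the largest difference in the ratio, −0.36 on the log2 scale at 4 Hz (adjusted p = 0.0565), with relative values of 0.924 to 1.06 in control (median 0.993) and 0.622 to 0.877 at 4 Hz (median 0.814). All its 4 Hz libraries were below control, although the difference did not pass the test. With an offset for this length, Srsf1 still fell by 0.85 at 1 Hz and by 1.26 at 4 Hz (1.05 and 1.59 without it). In the GENCODE annotation, 24 of 30 members (80.0%) have a transcript of the nonsense-mediated decay type and 22 (73.3%) one with a retained intron, against 75.5% and 59.0% of 12102 protein-coding genes tested. Transcripts of the nonsense-mediated decay type are 0 of 1 in Hnrnpa0, 35 of 54 in Srsf7, and 29 of 35 in Srsf9. The tables hold genes and not transcripts, so the forms themselves were not analysed here.

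Other library measures moved with the same conditions. TMM factors in control and at 1, 4, and 10 Hz were 1.018 to 1.074, 0.904 to 1.047, 0.869 to 0.999, and 1.001 to 1.049. In this order, the 10 genes highest in TPM held 8.9 to 9.66%, 8.96 to 11.7%, 9.55 to 15.9%, and 8.63 to 9.69% of it. The mitochondrial share of counts was 1.37 to 2.72%, 1.52 to 4.87%, 0.545 to 8.9%, and 1.44 to 2.56%. The part of these measures in the results was not tested. RNAs without a poly(A) tail (such as 7SK and the RNA of the signal recognition particle), which a poly(A) selection should remove, summed to 153 to 701 TPM in control (median 241), 586 to 1618 TPM at 1 Hz (median 1217), 358 to 3387 TPM at 4 Hz (median 613), and 248 to 528 TPM at 10 Hz (median 362). Of the 5 tested, 4 were higher at 1 Hz and 4 at 4 Hz, and 0 at 10 Hz. Terc and Rprl2 were at 0 in every library. The labels mention ribodepletion for low-input samples without naming them, so preparation and stimulation cannot be told apart from the labels.

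The counts of members were therefore taken in 2 further settings. Leaving out the 6 stimulated libraries above every control (4 of 1 Hz and 2 of 4 Hz), 2 members were higher and 13 lower at 1 Hz, beside 10.2% and 10.5% of all genes. At 4 Hz, 3 were higher and 20 lower, beside 21.7% and 20.8%. With the level of these RNAs as a covariate, 1 member was higher and 6 lower at 1 Hz, beside 6.1% and 7.4% of all genes, so that calls became fewer among all genes as well. At 4 Hz, 3 were higher and 16 lower, beside 16.5% and 16.6%. Between 10 and 1 Hz, 9 and 6 members differed in these settings (13.2% and 10.8% of all genes), and between 10 and 4 Hz, 19 and 18 (36.1% and 32.7%).

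The members that lost their calls in these settings kept their direction. With the covariate, 15 of 22 calls at 1 Hz were lost, and the log2 fold changes of these members were 0.562 to 1.01 times those without it (median 0.71). Hnrnpa0 had −0.30 (adjusted p = 0.0621) and Hnrnpa2b1 −0.22 (adjusted p = 0.124), close to their values without the covariate, whereas Hnrnph2 had −0.15 (adjusted p = 0.281) in place of −0.27. Srsf11 had 0.46 (adjusted p = 0.0658) in place of 0.65. At 4 Hz, 6 of 25 calls were lost, of Srsf3, Srsf4, Hnrnpd, Hnrnpk, Hnrnpll, and Hnrnpr, with 0.705 to 0.975 times the earlier differences. Leaving out the libraries, 7 calls were lost at 1 Hz with 0.66 to 1.31 times the earlier differences and 3 at 4 Hz with 0.824 to 0.998 times. The median over the members was −0.15 at 1 Hz and −0.33 at 4 Hz with the covariate, and −0.25 and −0.35 without the libraries. Srsf1 and Hnrnpm were called as lower at both frequencies in both settings. Both of these settings were chosen after the data were seen.

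**Figure D5:**
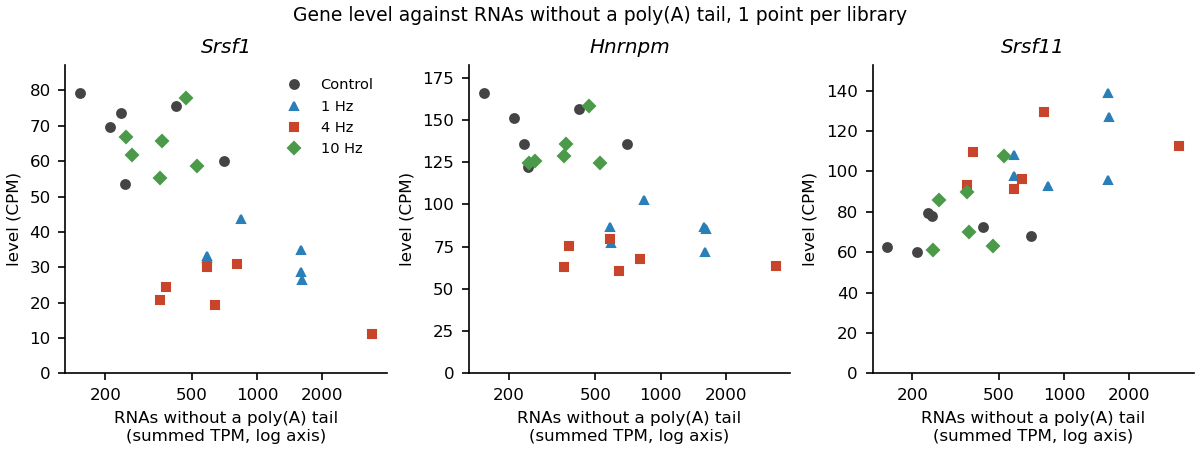
Level of Srsf1, Hnrnpm, and Srsf11 in CPM against the summed TPM of RNAs without a poly(A) tail (log axis), with 1 point per library marked by condition. The sum is 153 to 701 TPM in control, 586 to 1618 TPM at 1 Hz, and 358 to 3387 TPM at 4 Hz, and Srsf1 and Hnrnpm at 1 and 4 Hz lie below every control library.

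Cell type markers moved as well, and their part in the results was not tested. Over all genes, 19.2% rose and 18.1% fell at 1 Hz, and 27.5% rose and 23.9% fell at 4 Hz. At 10 Hz, 0.015% of all genes rose and 0.0225% fell. Of 8 markers of undifferentiated myoblasts, 3 fell and 1 rose at both 1 and 4 Hz, and their sum was 444 to 529.9 CPM in control, 251 to 358 CPM at 1 Hz, 256 to 330.1 CPM at 4 Hz, and 404 to 451.5 CPM at 10 Hz. None of them was at 0 in the median library, Pax7 being lowest. Of 20 cycling markers, 2 rose and 2 fell at 1 Hz, and 2 rose and 8 fell at 4 Hz, with sums of 385 to 423 CPM in control, 399 to 452 CPM at 1 Hz, 388 to 437 CPM at 4 Hz, and 388 to 446 CPM at 10 Hz. By the median over all libraries, Rrm2 (134 TPM) and Pcna (104 TPM) were the highest of these markers. Mki67 (0.304 TPM) and Bub1 (0.853 TPM) were the lowest, so the sum says little about them. Of 24 myotube markers, 0 were called at 1 Hz (0 at an unadjusted p under 0.05), 7 rose and 1 fell at 4 Hz, and 1 fell at 10 Hz, with sums of 18610 to 23530 CPM in control, 15550 to 29090 CPM at 1 Hz, 22660 to 26740 CPM at 4 Hz, and 17040 to 21480 CPM at 10 Hz. Of 12 fibroblast and adipocyte markers, 6 were tested, of which 3 rose and 1 fell at 1 and at 4 Hz, with sums of 828 to 1299 CPM in control, 820 to 1261 CPM at 1 Hz, 916 to 1283 CPM at 4 Hz, and 997 to 1405 CPM at 10 Hz. Adipoq, Plin1, Cfd, Lep, and Thy1 had a median of 0 TPM.

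The other genes of the splicing machinery are given as lists, to be read beside the 19.2% of all genes that rose and 18.1% that fell at 1 Hz and the 27.5% and 23.9% at 4 Hz. Among 18 SR-related proteins, 4 rose and 7 fell at 1 Hz and 4 rose and 11 fell at 4 Hz (medians −0.24 and −0.29). Luc7l3, a U1-associated protein, fell from 47.3 ± 4.78 CPM (SD, n = 6) in control to 22.5 ± 3.30 CPM (SD, n = 6) at 4 Hz (log2 fold change −1.08, adjusted p = 3.7e-07, edgeR), and Rnps1, which joins the exon junction complex, fell by 0.42 (adjusted p = 1.77e-06). Tra2a, an SR-like activator of exons, rose by 0.61 at 4 Hz (adjusted p = 0.000291). This rise was called in 24 of 24 alternatives, with values from 0.25 to 0.66. Srrm1 rose by 0.30 and 0.23 at 1 and 4 Hz, but had −0.0004 and −0.14 on the log2(TPM + 1) scale, and its call at 4 Hz held in 10 of 24 alternatives, with 7 of the losses from leaving out 1 library (replicate 1, 3, 4, or 5 of control or replicate 3, 4, or 5 of 4 Hz, with 0.17 to 0.21). Without replicate 3 of 4 Hz, 9 genes of this list were called at 4 Hz in place of 15.

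The 11 kinases and importers of SR proteins included genes with large changes in both directions, with 3 higher and 3 lower at 1 Hz and 3 higher and 5 lower at 4 Hz (medians −0.13 and −0.17). Srpk1, the main cytoplasmic SR kinase, fell from 50.5 ± 6.0 CPM (SD, n = 6) in control to 26.0 ± 3.15 CPM (SD, n = 6) at 4 Hz (log2 fold change −0.96, adjusted p = 2.26e-07, edgeR). Of the nuclear CLK kinases, Clk2 fell by 0.88 at 1 Hz (adjusted p = 2.6e-06) and by 0.80 at 4 Hz (adjusted p = 5.01e-06). In contrast, Clk3 rose from 49.3 ± 3.14 CPM (SD, n = 6) to 79.3 ± 5.57 CPM (SD, n = 6) at 4 Hz (0.68, adjusted p = 2.59e-08). Clk4 rose by 0.70 at 4 Hz (adjusted p = 4.23e-05), and was called in 24 of 24 alternatives, with values from 0.29 to 0.75.

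Among 21 other RNA-binding proteins of the hnRNP class, 0 rose and 9 fell at 1 Hz and 1 rose and 12 fell at 4 Hz (medians −0.21 and −0.33). Sfpq, a paraspeckle protein, fell from 260.2 ± 30.2 CPM (SD, n = 6) to 110.7 ± 23.4 CPM (SD, n = 6) at 4 Hz (log2 fold change −1.23, adjusted p = 6.13e-09, edgeR), and Ewsr1 of the FET family fell by 0.95 (adjusted p = 8.41e-09). The 1 riser, Raly, had 0.23 (adjusted p = 0.012) but −0.12 on the log2(TPM + 1) scale, and without replicate 4 of 4 Hz it had 0.17 and was not called.

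Of 37 core spliceosome genes, 5 rose and 15 fell at 1 Hz and 6 rose and 17 fell at 4 Hz (medians −0.14 and −0.19). Sf3b1 rose by 0.46 and 0.42 at 1 and 4 Hz, but had 0.19 and 0.05 on the log2(TPM + 1) scale, neither called (adjusted p = 0.207 and 0.737, limma). Snrpd2 rose by 0.57 at 4 Hz, and its 0.38 at 1 Hz lost its call in 13 of 24 alternatives, 7 of which left out 1 library (replicate 3, 4, 5, or 6 of control or replicate 3, 4, or 6 of 1 Hz, with differences from 0.25 to 0.38). In contrast, Sf3b3, a partner of Sf3b1 in the U2 particle, fell by 0.55 and 0.63 and Prpf4 by 0.48 and 0.72 (−0.34 at 1 Hz with the covariate, not called). Of 15 genes of nonsense-mediated decay and the exon junction complex, 2 rose and 2 fell at 1 Hz and 2 rose and 5 fell at 4 Hz (medians 0.03 and −0.04). Upf1, the helicase at the centre of nonsense-mediated decay, fell by 0.59 and 0.68 (adjusted p = 1e-05 at 4 Hz), and Eif4a3 had −0.17 (not called, but called in 9 of 24 alternatives) and −0.25 (lost with the length offset, −0.15). Casc3 rose by 0.36 and 0.30 and Upf3a by 0.23 and 0.27, but at 4 Hz these had −0.03 and −0.04 on the log2(TPM + 1) scale. The call of Casc3 at 1 Hz was lost in 3 of 24 alternatives, with 0.12 (adjusted p = 0.607, limma) on log2(TPM + 1), 0.13 on log2(TPM + 0.1), and 0.27 (adjusted p = 0.0808) without the libraries highest in RNAs without a poly(A) tail. The call of Upf3a at 1 Hz (adjusted p = 0.0488) was lost in 17 of 24 alternatives, 9 of them without 1 library (all but replicate 3 of control and replicates 1 and 5 of 1 Hz, with 0.15 to 0.25), and at 4 Hz it held in 15 of 24 and was lost without replicate 5 of control or replicate 3, 4, or 5 of 4 Hz (0.18 to 0.24). The 4 genes of this list called at 1 Hz became 2 without replicate 1, 4, or 5 of control or replicate 3 or 4 of 1 Hz, and 2 to 6 over all such omissions. Without the libraries highest in RNAs without a poly(A) tail and with the covariate for these RNAs, 1 and 2 genes of this last list were called at 1 Hz and 4 and 4 at 4 Hz. The core spliceosome list had 10 and 7 called at 1 Hz and 22 and 15 at 4 Hz in these settings, and the SR-related list 8 and 4 and then 9 and 8. Calls became fewer over all genes as well. At 1 Hz, 10.2% of all genes rose and 10.5% fell without those libraries, and 6.1% and 7.4% did with the covariate. At 4 Hz the shares were 21.7% and 20.8% without those libraries, and 16.5% and 16.6% with the covariate. At 10 Hz, 0 genes of these 5 lists were called by edgeR. In the order above, 3, 0, 1, 0, and 0 of them had an unadjusted p under 0.05, beside 1074 of the 13315 genes tested.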

How the data were processed

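Bulk RNA was sequenced from 24 libraries of C2C12 tissues, 6 each of control, 1, 4, and 10 Hz. The labels describe poly(A) selection on beads and 50-base paired-end reads, with ribodepletion for unnamed low-input samples. The authors quantified reads with Salmon and deposited estimated counts per gene, which are not normalized, and TPM per gene, which is divided by transcript length and scaled to 1e+06 per library. The submitters' processing notes also name BWA 0.7.12-r1039, bedtools 2.25.0, STAR, and the builds mm10, hg19, and GRCm39. The study's methods name a directional library kit, which keeps the strand of the RNA. How the counting used the strand is not given in the sources used here, and 24 of 31 members overlap an exon on the opposite strand.

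The estimated counts (6.15% not whole within 0.001) were rounded. All 24 libraries entered 1 fit in edgeR 4.0.16 (R 4.3.3) with TMM factors, a filter on low counts (filterByExpr, minimum 10 per library and 15 in all), and the robust quasi-likelihood F test, and p-values were adjusted by Benjamini-Hochberg over 13315 genes. The biological coefficient of variation was 14.8%, which limits the smallest difference that can be called at depths of 8052369 to 18159144 counts. Count per TPM and log2(TPM + 1) were tested with limma 3.58.1 (trend), the former on genes with 10 counts in every library. DESeq2 1.42.0 was an alternative, as were other size factors, filters, pseudocounts, a replicate block, an offset for transcript length, and leaving out each library. The tests were tried on simulated data with known changes.

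Genes chosen to be described with their levels are those beyond an adjusted p of 0.05 and 0.5 on the log2 scale. Also chosen were the 3 strongest by p among those higher and among those lower at 1 and 4 Hz (1 each at 10 Hz). The 3 most and the least abundant of each family were added. Hnrnpll was taken as the least abundant hnRNP gene, with a control mean of 24.96 TPM against 25.66 TPM for Hnrnpul2. Other members are given mainly by their fold changes. From each other splicing list, the 2 strongest by p in either direction are named. Members and lists were chosen with earlier results of these data known. The p-values measure the spread between the 6 libraries. Libraries of a condition correlated at 0.965 to 0.990 (Pearson's r across genes, log CPM), and none held the same counts as another. Positions and transcript types came from GENCODE release 39 for GRCm39, in which 98.9% of gene identifiers were found. Protein sequences of the members were not analysed here.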

Additional observations from a re-analysis of the deposited data

Results flagged for a closer look

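Among 72 groups of 6 libraries of named members, 5 held a library far from the other 5 by Dixon's criterion, which by chance marks about 1 in 20 groups. Hnrnpa1 was at 485.5 CPM in control replicate 6 against 551.7 to 566.4 CPM in the others. Hnrnpl was at 106.6 CPM in control replicate 1 against 95.01 to 99.35 CPM, and at 95.24 CPM in 10 Hz replicate 6 against 106.6 to 112.3 CPM. In 10 Hz replicate 2, Hnrnpm was at 158.1 CPM against 124.6 to 135.8 CPM, and Srsf2 was at 161.6 CPM against 114.7 to 125.8 CPM in the other 10 Hz libraries.

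The responses to the frequencies differed from one another in a direct test. Of 30 members, 17 differed between 10 and 1 Hz (27.9% of all genes) and 23 between 10 and 4 Hz (46.3% of all genes; edgeR quasi-likelihood test, adjusted p under 0.05), while 0 differed between 4 and 1 Hz (13 at an unadjusted p under 0.05, beside 11% of all genes). In the settings that leave out the libraries highest in RNAs without a poly(A) tail or take their level as a covariate, 9 and 6 members differed between 10 and 1 Hz (13.2% and 10.8% of all genes) and 19 and 18 between 10 and 4 Hz (36.1% and 32.7%). The cause was not tested.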

How the results depend on the processing

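Of 32 called values of named members, 30 never changed direction under any alternative and 16 also stayed on their side of the threshold in all of them. On log2(TPM + 1) and log2(TPM + 0.1), 1 and 1 members were higher at 1 Hz (5 in the main result) and 0 and 0 at 4 Hz (4), while 12 and 12 passed 0.5 on the log2 scale at 1 Hz (6) and 19 and 20 at 4 Hz (11). The median difference over all genes on log2(TPM + 1) was itself −0.14 at 1 Hz and −0.21 at 4 Hz. The share of all genes beyond 0.5 was counted only in the main fit, and not on these scales. On these scales the direction turned at 4 Hz for Hnrnpl (−0.10 and −0.11), Hnrnpll (−0.11 and −0.11), Srrm1 (−0.14 and −0.14), Raly (−0.12 and −0.12), Casc3 (−0.029 and −0.0316), and Upf3a (−0.0387 and −0.041), and at 1 Hz for Srrm1 (−0.000394 and −0.00118) and Raly (−0.12 and −0.12, and −0.0257 with the covariate below). Members with smaller, uncalled differences turned on log2(TPM + 1) as well, at 1 Hz Hnrnph3 (−0.22), Hnrnpul1 (−0.15), and Hnrnpa3 (−0.18), and at 4 Hz Hnrnpdl (−0.13), Hnrnph3 (−0.28), and Hnrnpul1 (−0.28). With no filter, 3 members were higher at 1 Hz. Without the 6 libraries high in RNAs without a poly(A) tail, which leaves 2 libraries at 1 Hz and 4 at 4 Hz, 2 members were higher at 1 Hz and 9 differed between 10 and 1 Hz (17). With the level of these RNAs as a covariate, 1 was higher and 6 lower at 1 Hz (17), 3 passed 0.5 on the log2 scale there, and 6 differed between 10 and 1 Hz. Hnrnpa1 at 1 Hz, not called, turned to 0.0136 with upper-quartile factors and ranged from −0.0532 to 0.00992 when 1 library was left out. Members with a changed count per TPM at 4 Hz numbered 1 with at least 50 counts, 4 when centred on the mean, and 0 to 2 when 1 library was left out (2 without 4 Hz replicate 6). For these settings the share of all genes was not counted. The summed hnRNP level at 4 Hz was 0.784 of control in CPM and 0.667 in TPM. The causes were not tested.

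Leaving out each library in turn gave 4 to 5 members higher and 14 to 18 lower at 1 Hz, 3 to 4 higher and 20 to 22 lower at 4 Hz, 0 at 10 Hz, 6 to 8 and 10 to 13 beyond 0.5 on the log2 scale, 13 to 18 differing between 10 and 1 Hz, 21 to 24 between 10 and 4 Hz, and 0 between 4 and 1 Hz. Between libraries with the same replicate number, deviations from the group means correlated at −0.332 to 0.242. Pairs with different numbers were not compared with these, so whether the number marks a pairing was not tested. With the replicate block, 5 were higher and 17 lower at 1 Hz, 4 higher and 21 lower at 4 Hz, and 0 at 10 Hz, 6 and 12 passed 0.5 on the log2 scale, and 0, 17, and 21 differed between 4 and 1, 10 and 1, and 10 and 4 Hz. The count per TPM was tested only for the 11503 genes with at least 10 counts in every library.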
